A study of Homo sapiens with 3 samples.

Results

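The HIST1 loci on the short arm of chromosome 6 hold the largest group of histone genes in the human genome. They were examined here through the H3K36me3 peaks that overlapped a proximal interval, chr6:26000000-26300000, and a distal interval, chr6:27000000-27900000, of build hg19. The interval between them, chr6:26300000-27000000, which holds butyrophilin and other genes with polyadenylated transcripts, served for comparison. Of the 117568 peaks in untreated cells, 82 overlapped the HIST1 intervals, 36 of them in the proximal and 46 in the distal interval. Of the 131801 peaks after dihydrotestosterone (DHT), 96 did, 40 and 56 in the same order. The interval between held 40 and 42.

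The peaks came from LNCaP, an established prostate cancer cell line that carries a working androgen receptor. Chromatin was precipitated with an antibody to histone H3 trimethylated at lysine 36, either from cells without treatment or from cells given 100 nM DHT, a potent androgen, for 4 h in red-free RPMI. Cells of both conditions were maintained in RPMI with serum, and the untreated cells are labelled with no treatment only, so the hormone and a change of medium cannot be told apart. Each condition has 1 library. No p-value was computed for that reason, and every 95% interval below covers counting error only, with peaks taken as independent. An input library completes the series and was not analysed here.

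H3K36me3 is laid down within gene bodies by the methyltransferase SETD2, which travels with elongating RNA polymerase II, and it builds up toward the 3′ part of long, transcribed genes. Replication-dependent histone genes differ from most transcribed genes. They are very short, have no introns, are read mainly in S phase, and end their mRNA at a conserved stem-loop bound by SLBP in place of a poly(A) tail. The H3 genes of these loci encode the protein whose lysine 36 carries the mark.

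In the RefSeq gene order of GRCh38.p14, 55 protein-coding genes carry a HIST1 name. They comprise 6 genes for the linker histone H1, which binds DNA between nucleosomes, 12 for H2A and 15 for H2B, which pair as dimers on the outside of the nucleosome, and 10 for H3 and 12 for H4, which form its central tetramer. In that order a first group ran from H1-1 to H4C8 with 32 histone genes and 1 other coding gene, HFE, a regulator of iron uptake. A stretch without coding histone genes followed, with 9 coding genes, among them BTN3A2, BTN2A2 and BTN1A1, members of the butyrophilin family, HMGN4, a nucleosome-binding protein, and the zinc finger gene ZNF322, and with 47 tRNA genes. A second group, from H2BC11 to H2AC12, held 5 histone genes. The last group, from H2BC13 to H2BC17, held 16, after a stretch with 51 tRNA genes and 5 coding genes, among them the serine protease gene PRSS16 and the zinc finger genes ZNF391 and ZNF184. The remaining pair, H2AC1 and H2BC1, stood apart before the first group. The table lists several curated transcripts for 5 of the 55 genes, H2BC4, H2BC5, H3C4, H3C6 and H2BC12. No annotation of hg19 was used, so peaks were not assigned to single genes and values are given by interval, window, block and peak. A HIST1 peak, window or block below is any that overlaps the HIST1 intervals, whether or not it lies at a histone gene. Its values are therefore not traits of histone genes alone.

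Promoters of the same histone family often held the same short sequence elements, and these are shown first as a feature of the members that did not enter their choice. RefSeq promoter windows (GRCh38.p14) were matched for 50 of the 55 genes. H4C1, H4C3, H2AC12, H3C11 and H3C12 had no entry. The 250 bases before the start were searched on both strands for TATAAA (the TATA box), CCAAT (the CCAAT box), ATTTGCAT (the octamer bound by OCT1) and AAACACA (the H1 box), none of which contains another. These elements were picked by name and were not found by a search of these promoters. The H1 box is named for the H1 genes. Shares of the elements by family are therefore a description and not a test. From each family 1 gene is printed, the first in chromosomal order within the groups with the most kinds of element in the 130 bases before the start. All run 5′ to 3′ along the gene, with the elements in capitals, and their positions are on GRCh38.p14, which is not the build of the peaks.
H1-4: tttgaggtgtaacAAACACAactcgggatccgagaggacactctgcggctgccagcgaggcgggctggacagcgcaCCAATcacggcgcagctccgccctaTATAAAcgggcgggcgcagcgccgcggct
H2AC4: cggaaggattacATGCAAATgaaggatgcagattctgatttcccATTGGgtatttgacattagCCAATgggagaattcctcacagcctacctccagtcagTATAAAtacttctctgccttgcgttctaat
H2BC3: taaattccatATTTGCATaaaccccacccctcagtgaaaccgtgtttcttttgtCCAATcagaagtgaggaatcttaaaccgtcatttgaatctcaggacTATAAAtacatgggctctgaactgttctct
H3C1: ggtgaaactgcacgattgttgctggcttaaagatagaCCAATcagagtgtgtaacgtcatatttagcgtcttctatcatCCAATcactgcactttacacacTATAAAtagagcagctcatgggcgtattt
H4C13: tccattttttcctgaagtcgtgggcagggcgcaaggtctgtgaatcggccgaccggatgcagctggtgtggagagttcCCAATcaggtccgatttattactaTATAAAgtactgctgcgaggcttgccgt
These stretches lie at chr6:26156199-26156328 on the plus strand, chr6:26033619-26033748 on the minus strand, chr6:26043714-26043843 on the minus strand, chr6:26020321-26020450 on the plus strand and chr6:27873535-27873664 on the minus strand. In each of them TATAAA reads along the gene and begins 28 to 30 bases before the start. The stretches were chosen for the most kinds of element, so they need not be typical of their families. H1-4 has AAACACA 117 bases before its start and CCAAT at 54. H2BC3 has the octamer at 120 and CCAAT at 76, while in H2AC4 the octamer, at 118, is on the opposite strand. H3C1 has a pair of CCAAT boxes, at 93 and 51, and H4C13 has 1, at 52.

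The counts that follow include H2AC1 and H2BC1, which stand apart before the first group and were not placed on hg19. Over all matched HIST1 genes, TATAAA occurred in 34 of 50 promoters (68.0%), against 11.9% of the 15843 protein-coding genes with a window. At 20 to 40 bases before the start, and along the gene, it occurred in 26 of 50 (52.0%) against 4.20%. The H1 box was found in 6 of 6 H1 promoters and in no promoter of the other families, against 5.04% of all coding genes. The octamer was found in 12 of 15 H2B and 9 of 11 H2A promoters, against 2.15%. These are not separate findings, since 9 of 11 neighbouring H2A and H2B genes stood head to head with overlapping promoter windows, so that 1 octamer can count for both. The single H3 promoter with an octamer was that of H3C4, for which 1 of its starts is also the start of H2AC7. CCAAT was present in each H1, H2A, H2B and H3 promoter that was matched and in 3 of 10 H4 promoters (30.0%), against 40.2% of all coding genes. The list for the interval between was not placed on hg19. It held the 9 coding genes between the first and second groups in the GRCh38.p14 order, the pseudogene BTN2A3P and the non-coding HCG11, 11 in all. Of these, 8 had a window, of which 1 held TATAAA, 5 CCAAT, 3 AAACACA and 0 the octamer. A match is a run of letters and does not show that a factor was bound.

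**Figure D1:**
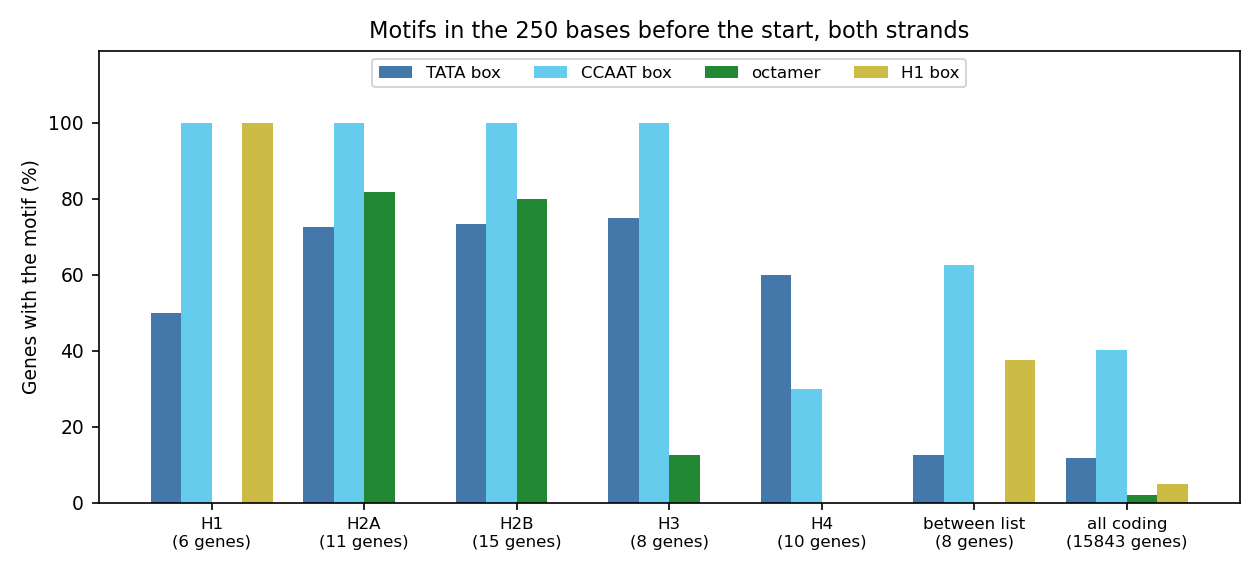
Percent of genes with each of the 4 elements, on either strand, in the 250 bases before the start (vertical axis). Bars are given by histone family, for the genes listed for the interval between, and for all protein-coding genes. The H1 box stands at 100% in H1 and at 0% in the other families, and the octamer at 80.0% in H2B and 81.8% in H2A.

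H3K36me3 was dense in the proximal HIST1 interval and near the genome-wide level in the distal one. Peaks covered 6.42% of the proximal interval in untreated cells (4.31% to 9.56%) and 5.86% after DHT (4.16% to 8.26%). They covered 2.28% of the distal interval in untreated cells (1.62% to 3.20%) and 2.83% after DHT (2.11% to 3.78%). In the interval between, the covered share was 2.73% (1.86% to 4.01%) and 2.42% (1.72% to 3.40%). All nuclear chromosomes together were covered at 2.08% and 2.13%, and chromosome 6 at 1.54% and 1.52%. The proximal share was the higher of the HIST1 intervals in both libraries and lay above that of the interval between.

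Relative to the interval between, the proximal interval was covered 2.35 times as much in untreated cells (1.35 to 4.09) and 2.42 times as much after DHT (1.49 to 3.93). Relative to the distal interval the ratio was 2.82 (1.67 to 4.75) and 2.07 (1.32 to 3.25). These 4 intervals excluded 1. With peaks joined at 5 kb the interval of the proximal over between ratio included 1, at 2.24 (0.816 to 6.14) in untreated cells and 1.91 (0.642 to 5.71) after DHT, as it did for untreated cells in the higher-scoring 50% of the list, at 1.97 (0.898 to 4.32). The distal interval over the interval between gave 0.836 (0.501 to 1.40) in untreated cells and 1.17 (0.746 to 1.83) after DHT. A difference between them was not detectable in either library. In the gene order of GRCh38.p14, 51 tRNA genes and 5 other coding genes lie between the groups of 5 and 16 histone genes. Genes were not placed on hg19, so how much of the distal interval lies at histone genes was not determined. In the same order, the stretch between the first and second groups holds 47 tRNA genes beside 9 coding genes. Neither the distal nor the proximal ratio to the interval between therefore compares histone genes alone with other coding genes alone. Both HIST1 intervals combined were covered 1.22 times as much as the interval between in untreated cells (0.764 to 1.93) and 1.48 times as much after DHT (0.986 to 2.23). Of all windows of 300 kb in the genome, 10.2% were covered at least as much as the proximal interval in untreated cells and 12.5% after DHT. Of windows of 900 kb, 33.4% and 27.0% reached the level of the distal interval, and of windows of 700 kb, 28.3% and 30.6% reached that of the interval between. Windows without a peak were counted too, which lowers these shares.

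**Figure D2:**
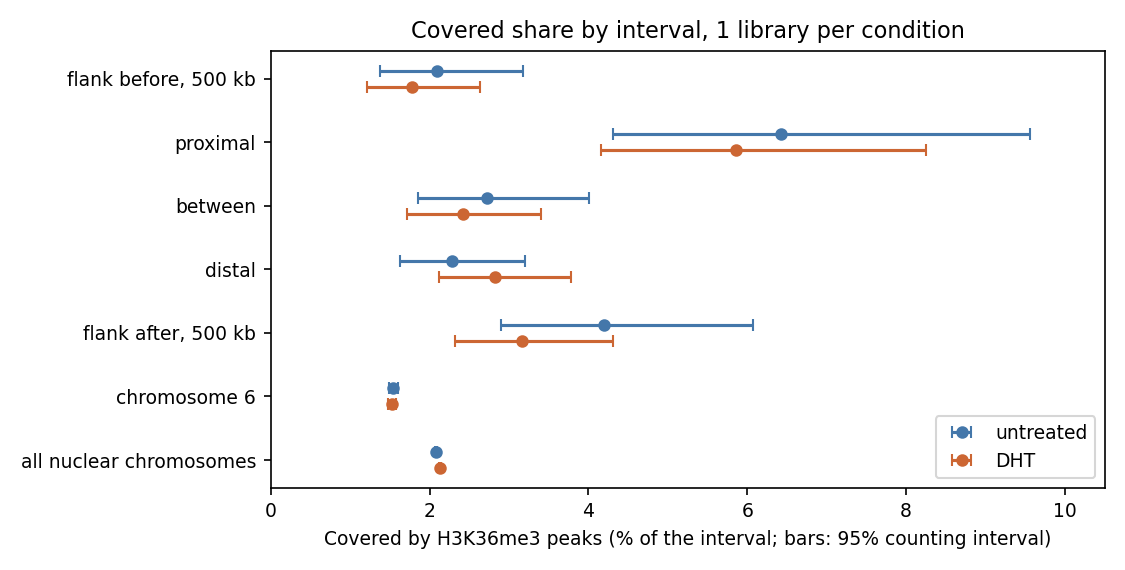
Percent of each interval covered by H3K36me3 peaks in untreated and DHT-treated cells (points) with 95% counting intervals (bars), for the HIST1 intervals, the interval between, 500 kb on either side, chromosome 6 and all nuclear chromosomes. The proximal interval stands highest in both libraries, at 6.42% and 5.86%.

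Most of the proximal signal came from the middle of it. In the window from 26100001 to 26200000, 22 peaks covered 12.9% in untreated cells and 22 peaks covered 10.8% after DHT. This window carried 67.1% and 61.5% of the bases covered in the proximal interval, and 2.70% and 5.02% of all 100 kb windows of the genome were covered as much or more. The window from 26000001 to 26100000, by contrast, held 3 and 4 peaks and was covered at 1.01% and 1.19%, and the one from 26200001 to 26300000 held 11 and 14 peaks and was covered at 5.34% and 5.58%. The longest stretch without a peak of either library in the proximal interval ran for 47685 bp, from 26043838 to 26091522. How many of the 32 genes of the first group fall within each window was not determined.

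The distal interval was uneven, with peaks in separate patches. The longest stretch without a peak of either library, 233066 bp from 27437214 to 27670279, took up 25.9% of it and included the window from 27500001 to 27600000, where neither library had a peak. The first 3 distal windows were covered at 2.43% and 2.06% from 27000001 to 27100000, at 2.14% and 3.55% from 27100001 to 27200000 and at 1.43% and 1.97% from 27200001 to 27300000, in untreated cells and after DHT. Next before the empty stretch, the windows from 27300001 to 27400000 and from 27400001 to 27500000 were covered at 4.35% and 4.15% in untreated cells and at 5.00% and 3.94% after DHT. In the window from 27600001 to 27700000, where it ended, coverage was 0.680% and 0.684%. After it, coverage was 2.39% and 1.76% in the window from 27700001 to 27800000. In the last window, from 27800001 to 27900000, it was 2.96% in untreated cells and 6.47% after DHT. In the interval between, peaks were concentrated in the window from 26400001 to 26500000, at 8.96% and 7.99%.

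**Figure D3:**
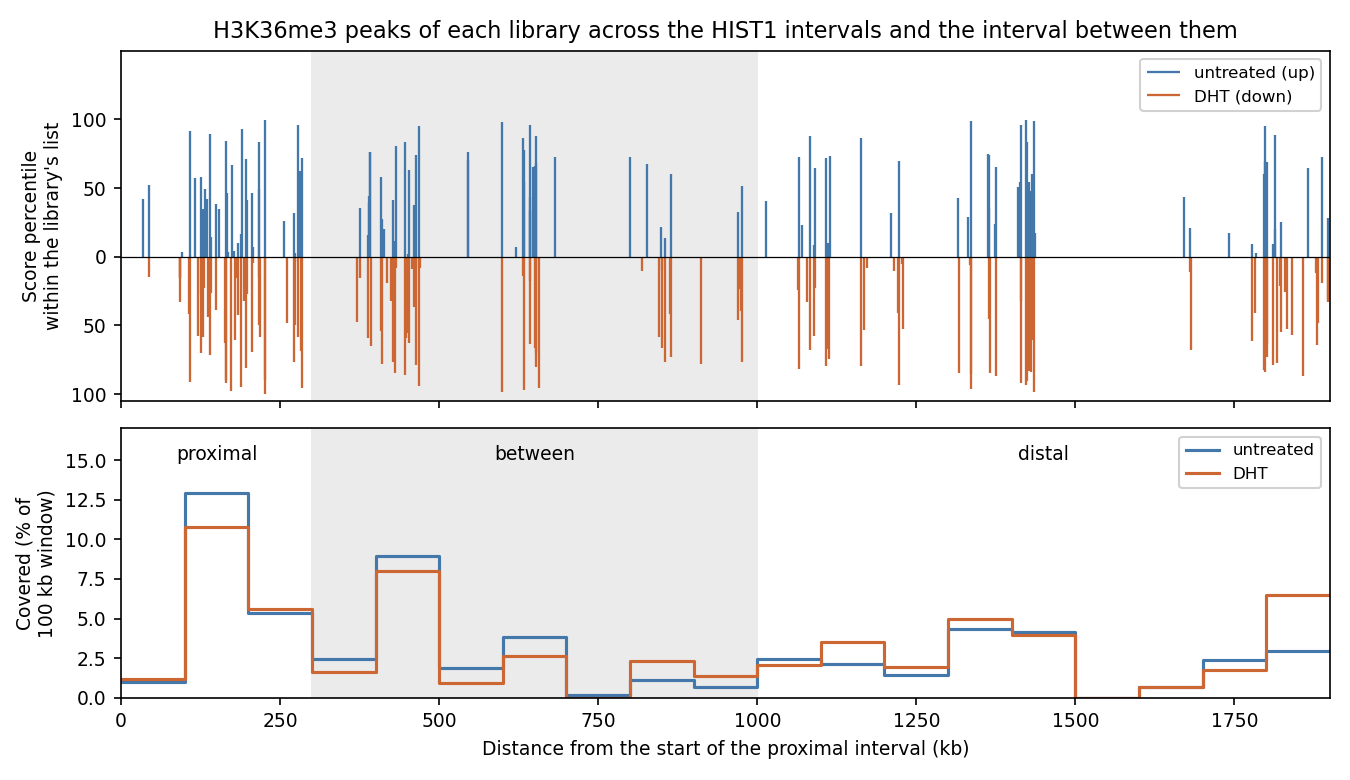
Peaks along the 3 intervals, with untreated peaks drawn upward and DHT peaks downward to their score percentile within their own list (upper panel), and percent covered in windows of 100 kb (lower panel), against distance from the start of the proximal interval in kb. Coverage is highest in both libraries at 100 to 200 kb, at 12.9% and 10.8%, and the grey band marks the interval between.

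The peaks of the HIST1 intervals were of ordinary width, and none was among the very wide ones. Their median width was 386 bp (untreated) and 395 bp (DHT), against 374 and 354 bp over all nuclear chromosomes. Peaks of at least 2 kb numbered 0 of 82 and 0 of 96, with upper 95% Wilson limits of 4.48% and 3.85%, where 2.58% and 2.05% of all peaks reached that width. Peaks of at least 1 kb numbered 7 in untreated cells (8.54%, 4.20% to 16.6%) and 4 after DHT (4.17%, 1.63% to 10.2%), against 10.3% and 7.82% of all peaks. The wider coverage of the proximal interval went with more peaks per length, 120.0 and 133 per Mb, against 51.1 and 62.2 per Mb in the distal interval and 38.0 and 42.6 per Mb over all nuclear chromosomes.

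The deposited score gives the authors' value for each peak and was read as a percentile within its own list. The median HIST1 peak stood at percentile 49.3 in the untreated list and 58.0 in the DHT list. In the proximal interval the median was 44.2 and 53.8, in the distal 57.5 and 61.3, and in the interval between 61.8 and 59.2. The higher-scoring 50% of each list held 40 of the 82 untreated peaks (48.8%, 38.3% to 59.4%) and 56 of the 96 DHT peaks (58.3%, 48.3% to 67.7%). The more densely covered proximal interval thus had the lower median percentile of the HIST1 intervals in both lists.

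A few positions scored near the top of both lists. In the proximal interval the highest-scoring peak of each library lay at the same place. It ran from 26225188 to 26226585 in untreated cells, with a score of 441 at percentile 99.3, and from 26225291 to 26225916 after DHT, with 633 at percentile 99.7. Another DHT peak, from 26226165 to 26226436 at percentile 89.5, also lay within the untreated one. In the distal interval the untreated peak from 27421822 to 27422229 scored 552 (percentile 99.7) and its DHT counterpart, from 27421782 to 27422228, scored 240 (percentile 93.4). The DHT peak from 27434780 to 27435434 scored highest there after DHT, at 383 (percentile 98.3), and its untreated counterpart, from 27435002 to 27435428, scored 399 (percentile 99.0). Counterparts also kept their place where scores were moderate. A proximal peak ran from 26195859 to 26196875 in untreated cells, at percentile 70.8, and from 26195861 to 26196895 after DHT, at percentile 81.0. Other counterparts differed in rank, as for the untreated peak from 26278374 to 26278781, which stood at percentile 96.0 while the DHT peak at the same start stood at 58.1. The widest peak of the HIST1 intervals was untreated, 1790 bp from 27335211 to 27337000, and after DHT a pair of peaks covered 83.7% of it.

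Other strong or wide peaks were found in 1 library. The DHT peak from 26171928 to 26172774, 847 bp wide with a score of 358 (percentile 97.8), had no untreated peak within 1801 bp. The widest untreated peak of the proximal interval, 1737 bp from 26165341 to 26167077 with a score of 77.3 (percentile 46.2), had no overlapping DHT peak, though the nearest was 249 bp away. In the distal interval the DHT peaks from 27429874 to 27430673, at percentile 83.8, and from 27800195 to 27800999, at percentile 72.8, overlapped no untreated peak. The nearest untreated peaks were 1257 and 344 bp away, in the same order. With 1 library per condition, the spread expected between libraries of the same condition is unknown.

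Peaks of the HIST1 intervals were found again in the other library about as often as peaks elsewhere. Of the untreated peaks, 47 of 82 (57.3%, Wilson 46.5% to 67.5%) were overlapped by at least 1 bp after DHT, against a background of 52.3% of all untreated peaks. Of the DHT peaks, 49 of 96 (51.0%, 41.2% to 60.8%) were overlapped in untreated cells, against a background of 48.5%. In the proximal interval 19 of 36 and 20 of 40 were overlapped, in the distal interval 28 of 46 and 29 of 56, and in the interval between 22 of 40 and 24 of 42. Overlapped HIST1 peaks were wider than the others, with medians of 447 against 333 bp in untreated cells and 448 against 349 bp after DHT. Their median score percentile was also higher, 64.5 against 40.5 and 71.5 against 41.3. Over all peaks the corresponding percentiles were 63.4 against 37.7 and 68.1 against 36.02.

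**Figure D4:**
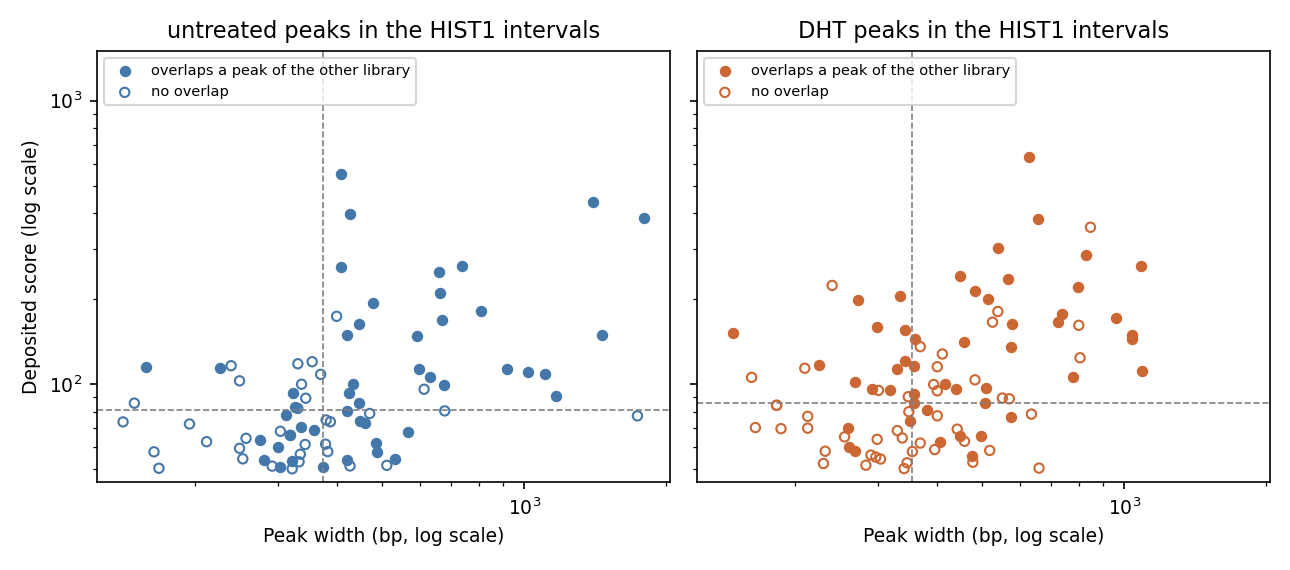
Width in bp (horizontal axis, log scale) and deposited score (vertical axis, log scale) of each HIST1 peak, in untreated cells (left) and after DHT (right), with filled points for peaks that overlap one of the other library. Dashed lines mark the medians of all peaks of that list, 374 bp and a score of 81.2 on the left and 354 bp and 85.7 on the right.

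Where a single peak of each library met, the distance between their edges was measured. There were 15 such pairs in the proximal interval, with a median distance of 32.0 bp between the starts and 90.0 bp between the ends, and 10 pairs started within 50 bp of each other. In the distal interval there were 27 pairs, with medians of 57.0 bp between the starts and 38.0 bp between the ends, and 12 started within 50 bp. The DHT peak was the narrower one in 6 of 15 proximal and 13 of 27 distal pairs. In sequence, 8705 bp of the proximal interval were covered in both libraries, 10556 bp in untreated cells only and 8872 bp after DHT only. In the distal interval these lengths were 12190, 8330 and 13251 bp. Sequence covered in both made up 33.8% of all covered HIST1 sequence, and 32.5% of that over all nuclear chromosomes.

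Across the HIST1 intervals no difference between the libraries exceeded counting error. The DHT list had 1.17 times as many peaks there (0.872 to 1.57) and 1.08 times the covered length (0.768 to 1.52), where the ratios over all nuclear chromosomes were 1.12 and 1.03. In the proximal interval there were 1.11 times as many peaks (0.708 to 1.74) over 0.913 times the length (0.540 to 1.54). In the distal interval there were 1.22 times as many (0.824 to 1.80) over 1.24 times the length (0.793 to 1.94), and in the interval between 1.05 times as many (0.681 to 1.62) over 0.887 times the length (0.530 to 1.48). The change in the proximal interval divided by that in the distal one was 0.736 (0.369 to 1.47), and the change in both HIST1 intervals divided by that in the interval between was 1.22 (0.658 to 2.26). Each of these ranges included 1. With the higher-scoring 50% of the lists, or with peaks joined at 1 kb or 5 kb, the proximal ratio of covered length was above 1, at 1.08, 1.06 and 1.05.

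By windows of 100 kb, 7 of the 12 HIST1 windows were covered more after DHT, 4 less, and 1 was empty in both libraries. The background was 50.7% covered more after DHT, of windows with a peak, so it leaves out empty windows. Of all 30940 windows, 9999 were covered more, 9715 less, and 11214 were empty in both libraries. In the interval between, 2 of 7 were covered more and 5 less. A 1.5-fold change was asked of windows with at least 10 kb covered, which 1 HIST1 window met, from 26100001 to 26200000, and it was called in neither direction, at 0.837 times (0.421 to 1.66). Over the genome 14.4% of such windows were called higher and 5.38% lower. By a rule chosen after the values were seen, 2-fold with at least 2 kb covered, 1 of 8 HIST1 windows was higher and 0 lower, against backgrounds of 5.87% and 4.04%. It was the last distal window, from 27800001 to 27900000, where the peaks numbered 8 in untreated cells and 16 after DHT and covered 2956 and 6470 bp. The ratio of covered length there was 2.19 (0.877 to 5.46), a range that includes 1.

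Peaks were merged across libraries into blocks wherever gaps were at most 5 kb, which left 12 blocks in the proximal, 29 in the distal and 19 in the interval between. Of these, 13 in the HIST1 intervals were at least 5 kb long, and 13 of 13 held peaks of both libraries, against a background of 96.2%. The longest, 34819 bp from 26162709 to 26197527, held 10 untreated and 11 DHT peaks over 7267 and 6690 bp. It was followed by a block of 25518 bp from 26116619 to 26142136, with 8 peaks in each library over 4365 and 2886 bp. At the end of the proximal interval a block of 13574 bp, from 26271125 to 26284698, was covered over 2241 and 3033 bp. The longest distal block, 15432 bp from 27421782 to 27437213, was covered nearly equally, over 2933 and 2952 bp, as was the block of 11731 bp from 27811315 to 27823045, over 1555 and 1553 bp. The shortest of the 4 longer proximal blocks, from 26148685 to 26154166, was covered over 640 and 351 bp. The other 7 longer distal blocks were 5147 to 8664 bp long, and their DHT over untreated ratio ran from 0.786, from 27064597 to 27069743, to 1.52, from 27220568 to 27229231. The interval between had a longest block of 15521 bp, from 26641815 to 26657335, covered over 2422 and 2032 bp.

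Among the 13 longer HIST1 blocks, 0 differed 2-fold in either direction, against backgrounds of 12.3% higher and 10.2% lower after DHT. Among the 8 of the interval between, 1 was 2-fold higher and 1 was 2-fold lower. Of the HIST1 blocks of any length, 12 of 41 held peaks of 1 library alone, 6 untreated and 6 DHT, against a background of 47.0%. Within the proximal interval this was the case for 1 of 12 blocks, the first one, a single untreated peak of 388 bp from 26034176 to 26034563. In the distal interval it was 11 of 29 and in the interval between 7 of 19. Denser peaks join into longer blocks, which more readily take in peaks of both libraries, and the part of peak density in these counts was not tested. In the last distal window, 4 blocks with DHT peaks alone lay at 27830118 to 27832871, 27840918 to 27841318, 27858087 to 27858625 and 27877746 to 27881598, and 1 block with an untreated peak alone lay among them, from 27866117 to 27866453.

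**Figure D5:**
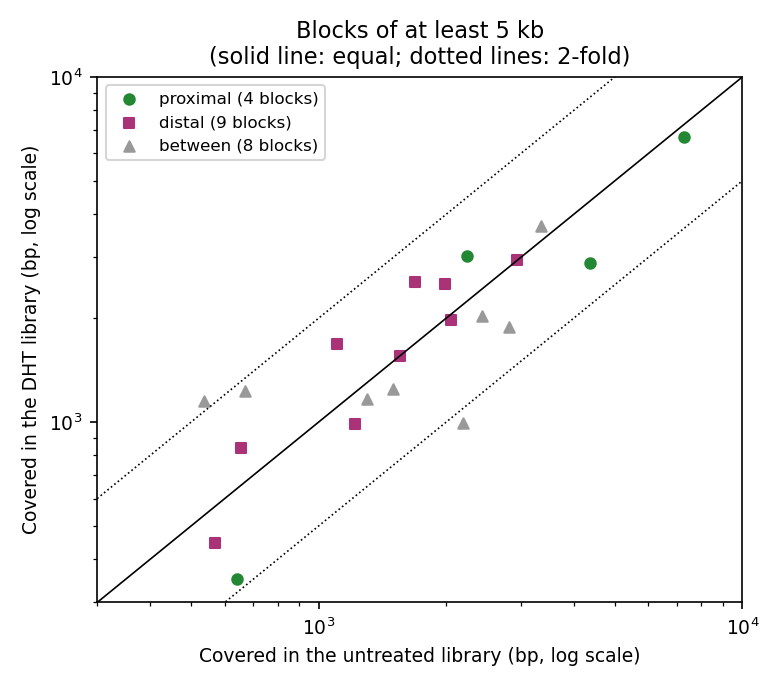
Length covered in bp in untreated cells (horizontal axis, log scale) and after DHT (vertical axis, log scale) for each block of at least 5 kb, by interval. The 13 HIST1 blocks lie between the dotted 2-fold lines, and the longest block, with 7267 and 6690 bp, is at the upper right.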

How the data were processed

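ChIP-seq peaks of 1 untreated and 1 DHT library were used. Per the file names and peak names, the authors deposited a MACS peak list on hg19 for each library, with a score per peak whose scale is not stated. The caller's version, settings and control, the aligner, the read numbers and the treatment of reads that fit several near-identical histone genes were not given in the sources used here. Depth is therefore unknown. A list of this kind marks sites past the caller's cut-off and does not measure the amount of H3K36me3, and closely spaced peaks can be parts of 1 domain.

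Peaks on nuclear chromosomes were used (4 untreated and 3 DHT mitochondrial peaks were set aside). Peaks overlapping an interval by at least 1 bp were counted, and covered bases were clipped to it. Chromosome length was taken as the end of the last peak. Sequence without peaks, assembly gaps among it, was not left out of genome-wide shares and windows, which lowers those covered shares. Intervals are at 95%, exact Poisson for counts, Wilson for shares, and from squared peak widths for covered lengths. Of these, only the interval of a ratio of covered lengths was tested by simulation, with independent peaks and a known ratio. Clustered peaks were not simulated, so the test does not show how the intervals hold for them. Named peaks were taken from the 5 widest and 5 highest-scoring per interval and library, with their counterparts. Blocks of at least 5 kb and the longest stretches without peaks were also named. Not every peak or block that met these rules is named, so those given are examples. Single-library blocks and windows named beyond this were chosen after their values were seen. The members and lists were chosen with earlier results of these data known. Counts of marked genes were planned for an hg19 annotation and were not computed. RefSeq tables of GRCh38.p14 gave gene names, gene order and promoter sequences. Python 3.11.15, NumPy 2.4.6, pandas 2.3.3, SciPy 1.17.1 and matplotlib 3.10.9 were used.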

Additional observations from a re-analysis of the deposited data

How the results depend on the processing

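Of 144 values recomputed under other settings, 113 stayed within the counting interval or 1.5 times the count reported, 25 moved further and 6 ratios crossed 1. With the higher-scoring 50% of each list, HIST1 peaks numbered 40 and 56 (untreated and DHT). Covered shares were then 3.32% and 3.58% in the proximal, 1.51% and 2.03% in the distal and 1.68% and 1.60% in the interval between. With peaks joined at 5 kb, they numbered 41 and 41, and covered shares were 17.4% and 18.2%, 7.06% and 8.05%, and 7.78% and 9.52% in the same order. Shared peaks were then 75.6% and 73.2%. Requiring 50% of both peaks to be covered left 43.9% and 37.5% shared. Covered length in the proximal interval, 0.913 times as high after DHT, was 1.08 times as high in the upper 50% by score and, with peaks joined at 1 kb and 5 kb, 1.06 and 1.05 times as high. Peak number there, 1.11 times as high, came to 0.964 and 0.882 times when joined at these distances. The distal over between ratio after DHT, 1.17, was 0.846 joined at 5 kb. The cause of these crossings was not tested. Windows with enough covered length, 1 at 100 kb, were 2 at 50 kb and 0 at 300 kb, and with the added rule of 2 kb and 2-fold 8, of which 1 was higher. Blocks of at least 5 kb, 13, were 5 with joining at 2 kb. The proximal over between ratio stayed above 1 in both libraries under the 7 list and edge settings tried, but its interval included 1 with peaks joined at 5 kb, in both libraries, and in the higher-scoring 50%, in untreated cells. No replicate could be left out, and no paired analysis was possible because each condition has 1 library.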

Other observations

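Coverage was also counted on either side of the HIST1 loci, without a comparison. In the 500 kb before the proximal interval, 26 untreated and 28 DHT peaks covered 2.10% (1.38% to 3.18%) and 1.78% (1.21% to 2.64%). In the 500 kb after the distal interval, 42 and 45 peaks covered 4.19% (2.89% to 6.08%) and 3.17% (2.33% to 4.31%). There 18 of 42 untreated peaks (42.9%, 29.1% to 57.8%) and 17 of 45 DHT peaks (37.8%, 25.1% to 52.4%) were overlapped in the other library, and covered length after DHT was 0.755 times that in untreated cells (0.466 to 1.22).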
